A study of Canis lupus familiaris with 8 samples.

Results

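Macrophage and myeloid marker genes were followed in the hearts of dogs with hyperhomocysteinemia (HHcy), in which homocysteine, an amino acid formed from methionine, builds up in the blood. The 9 genes listed were CD14, FCGR1A, SRGN, CD68, CSF1R, CD163, TYROBP, AIF1 and MSR1, and every probe set that the platform annotation gives a single one of these symbols was taken. This found 11 of the 23913 probe sets on the array, for 8 of the 9 genes, and MSR1, a scavenger receptor, was not analysed here. The 4 HHcy dogs received methionine in their drinking water for 2 weeks, and the 4 control dogs served for comparison. Cardiac RNA was taken at the end of that time, with 1 Affymetrix canine array per dog. All 8 dogs were male and weighed 23 to 27 kg, and the labels name neither a strain nor the chamber sampled. The model is defined by the methionine load, and no homocysteine level is used here.

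Macrophages and monocytes are phagocytes of the innate immune system. In the healthy heart, resident macrophages lie between the muscle cells and clear debris, and monocytes from the blood add to them during inflammation. The listed genes cover several parts of the cell: surface receptors for bacterial products (CD14), antibodies (FCGR1A), growth factor (CSF1R) and haemoglobin (CD163), the signalling adaptor TYROBP, the lysosomal membrane protein CD68, the cytosolic protein AIF1 and the granule proteoglycan SRGN. SRGN is also made by other blood cells and by endothelium, so it marks leukocytes less strictly than the others.

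One HHcy array stood apart from the rest. The actin 3'/5' signal ratio, which grows as RNA is broken down, reached 599.6 on HHcy 6 and 15.3 on HHcy 5, while the remaining 6 arrays had 0.378 to 2.67. On HHcy 6 the 10 tested cardiomyocyte markers had a median log2 deviation of -4.56 from the control mean, while it ran from -0.17 to 0.14 on HHcy 5, 7 and 8 and from -0.32 to 0.36 on the controls. The cardiac troponin TNNT2 had a signal of 24.5 there and of at least 5899.6 on the other HHcy arrays, and the light chain MYL3 had 27.4 there. Others were lower on HHcy 6 but far from that dim, such as the myosin heavy chain MYH7, with 6889 on HHcy 6 and 30226 to 40337 on the other HHcy arrays. Control 2 had the lowest 3'/5' ratio of actin. Main results are therefore also given without HHcy 6, or without HHcy 5 and HHcy 6. The arrays share a 2% trimmed mean of 500.1 signal units, and with 4 arrays a group the number of dogs sets how precise each value can be.

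The myeloid markers had higher signals in HHcy hearts. Taking each gene by its brightest probe set, the median log2 fold change of the 8 measured genes was 1.40, beside 0.15 over all 14301 probe sets tested. SRGN had a fold of 4.41, TYROBP 3.52, FCGR1A 2.87, CD14 2.67, CD68 2.62, CD163 2.51, CSF1R 2.06 and AIF1 1.85. None of these passed the test. Limma with Benjamini-Hochberg adjustment over all probe sets called 0 of the 10 marker probe sets tested and 0.0979% of all. With array weights it called 1 of the 10, SRGN, and 76 of all 14301. At an unadjusted p under 0.05, 9 of the 10 were higher in HHcy and 0 lower, against 11.9% higher and 5.94% lower among all probe sets. The 4 HHcy arrays lay above the 4 control arrays for 7 of the 10 and below them for 0, against 7.49% and 3.89% of all probe sets. CD68 passed the filter on dim probe sets only through its HHcy signals, and without it the counts were 8 and 7 of 9. The markers were chosen with earlier results of these data known, so these counts are a description and not a test. Bulk RNA cannot tell more myeloid cells from more RNA per cell.

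**Figure D1:**
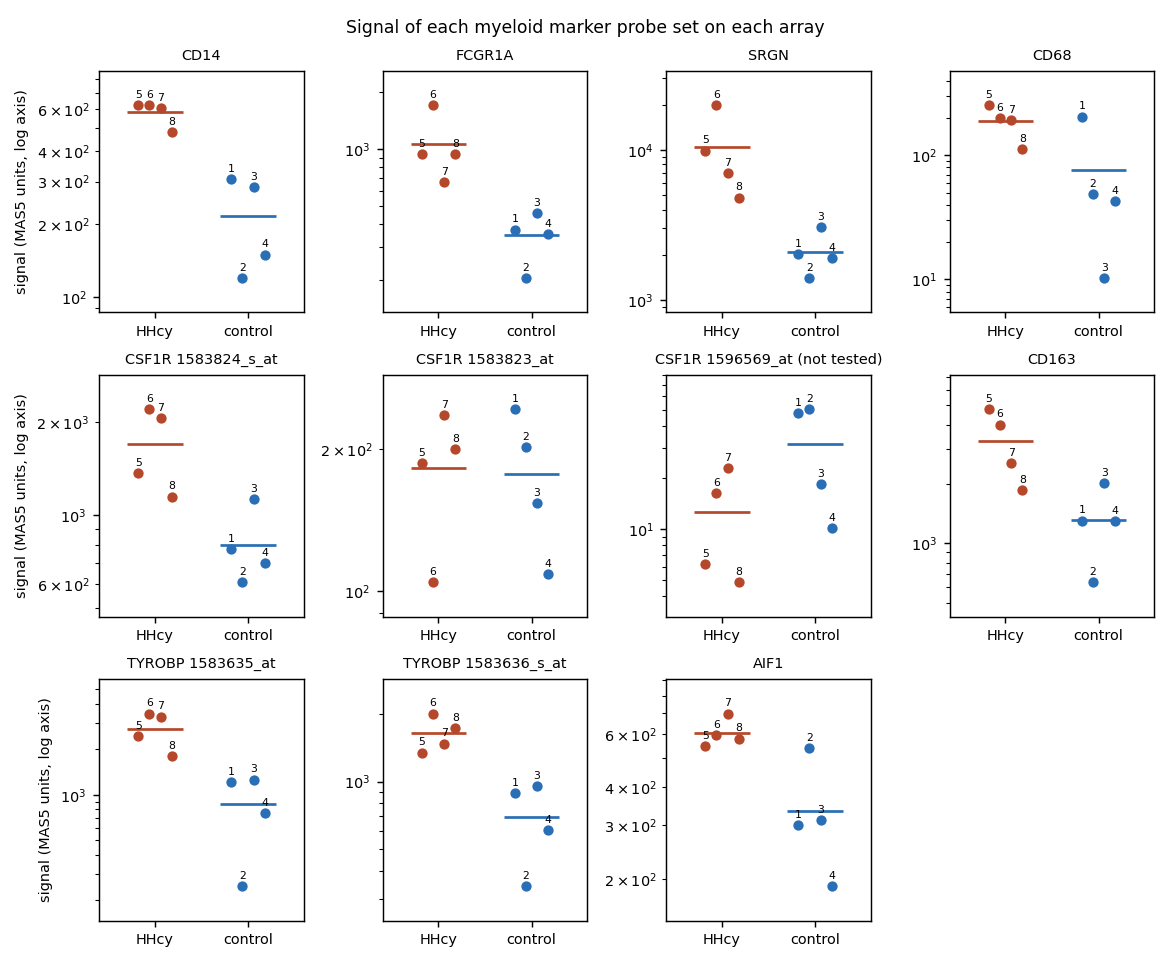
Signal of each of the 11 marker probe sets on each array, in MAS5 units on a log axis, with HHcy at left, control at right, the array number beside each point and a line at the group mean. In 7 of the 10 tested panels every HHcy point lies above every control point; the exceptions are CD68, CD163 and CSF1R 1583823_at.

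Among the surface receptors, CD14 is the co-receptor that hands lipopolysaccharide to the TLR4 complex. Its probe set 1585096_at had signals of 621, 621, 602 and 479 on HHcy 5 to 8, against 308, 120, 285 and 150 on controls 1 to 4. The HHcy dogs were close to one another and the lowest of them was 1.56 times the highest control. The mean was 581 ± 68.3 in HHcy dogs and 216 ± 94.6 in control dogs (SD, n = 4 each), with a log2 fold change of 1.42 ± 0.32 (SE; limma adjusted p 0.121).

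FCGR1A, the high-affinity receptor for IgG, had signals of 936, 1711, 667 and 939 on HHcy 5 to 8 with probe set 1585932_at, against 372, 206, 456 and 352 on controls 1 to 4. HHcy 6 was the highest array and control 2 the lowest, and the groups did not overlap. The log2 fold change was 1.52 ± 0.33 (SE; limma adjusted p 0.121). Without HHcy 6 it was 1.27 (adjusted p 0.135).

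CSF1R, the receptor for macrophage colony-stimulating factor, on which macrophages depend for survival, had 3 probe sets that did not run alike. Probe set 1583824_s_at had signals of 1371, 2205, 2065 and 1151 on HHcy 5 to 8, against 776, 608, 1131 and 702 on controls 1 to 4. The groups were just apart, the lowest HHcy array having 1.02 times the signal of the highest control, and the log2 fold change was 1.04 ± 0.29 (SE; limma adjusted p 0.150). Probe set 1583823_at had signals of 187, 105, 237 and 200 on HHcy 5 to 8, against 243, 202, 154 and 109 on controls 1 to 4. There the groups overlapped across their whole range, with a log2 fold change of 0.04 (95% confidence interval -0.70 to 0.78), which turned to -0.26 with quantile scaling and -0.27 with median scaling. Probe set 1596569_at was too dim to be tested, with 4.86 to 22.8 in HHcy and 10.1 to 50.3 in controls. The fold of 2.06 for CSF1R thus rests on 1 of its 3 probe sets.

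CD163 is the scavenger receptor that takes up haemoglobin bound to haptoglobin and is typical of resident tissue macrophages. Its probe set 1586574_at had signals of 4774, 3991, 2561 and 1866 on HHcy 5 to 8, against 1303, 638, 2016 and 1294 on controls 1 to 4. HHcy 8 lay below control 3, so the groups overlapped by that pair. The log2 fold change was 1.33 ± 0.38 (SE; limma adjusted p 0.158). Its highest signals were on the arrays with the highest 3'/5' ratios, and without HHcy 5 and HHcy 6 the fold was 1.78, against 2.51 with all arrays.

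TYROBP, also called DAP12, is the adaptor that carries the activating signal of TREM2 and related receptors. With probe set 1583635_at its signals were 2433, 3444, 3283 and 1801 on HHcy 5 to 8, against 1208, 248, 1260 and 753 on controls 1 to 4. Control 2 stood well under the other controls, and the lowest HHcy array was 1.43 times the highest control. The log2 fold change was 1.82 ± 0.45 (SE; limma adjusted p 0.140). The second probe set, 1583636_s_at, had signals of 1348, 2013, 1479 and 1736 on HHcy 5 to 8, against 886, 340, 955 and 606 on controls 1 to 4. It gave 1.29 ± 0.33 on the log2 scale (SE; adjusted p 0.141), so both TYROBP probe sets separated the groups.

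CD68, a heavily glycosylated protein of the lysosome membrane, spanned 19.9-fold from the lowest to the highest control. Probe set 1603730_at had signals of 254, 198, 192 and 112 on HHcy 5 to 8, against 205, 48.7, 10.3 and 42.8 on controls 1 to 4. Control 1 reached the level of the HHcy dogs, while control 3 lay under the pseudocount of 24 that was added before taking logarithms. The log2 fold change was 1.39 ± 0.53 (SE; limma adjusted p 0.222), and it was 0.81 with a pseudocount of 96 and 1.91 without control 1.

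AIF1, also known as IBA1, is an actin-binding protein of macrophages and microglia. Probe set 1591476_at had signals of 547, 594, 699 and 578 on HHcy 5 to 8, against 302, 537, 313 and 190 on controls 1 to 4. The HHcy dogs spanned only 1.28-fold from lowest to highest, against 2.83-fold in the controls. Control 2, low for most of the markers, was the highest control here and came within 1.02 times of the lowest HHcy array. The log2 fold change was 0.89 ± 0.30 (SE; limma adjusted p 0.193).

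SRGN, the core protein of serglycin, packs proteases and mediators into secretory granules. It had the lowest p of the markers. Probe set 1600301_at had signals of 9886, 19808, 7037 and 4802 on HHcy 5 to 8, against 2031, 1408, 3078 and 1908 on controls 1 to 4. The groups did not overlap, the lowest HHcy array being 1.56 times the highest control, while the HHcy dogs spanned 4.13-fold among themselves. The mean was 10383 ± 6619 in HHcy dogs and 2106 ± 702 in control dogs (SD, n = 4 each), with a log2 fold change of 2.14 ± 0.40 (SE; limma adjusted p 0.0866). SRGN passed without HHcy 6 (log2 fold change 1.76, adjusted p 0.0474), without HHcy 8 (2.44, adjusted p 0.0395) and with array weights (1.69, adjusted p 0.0376). Without HHcy 5 and HHcy 6 it did not, with a fold of 2.85 (adjusted p 0.305; over its alternatives 0.0376 to 0.538).

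**Figure D2:**
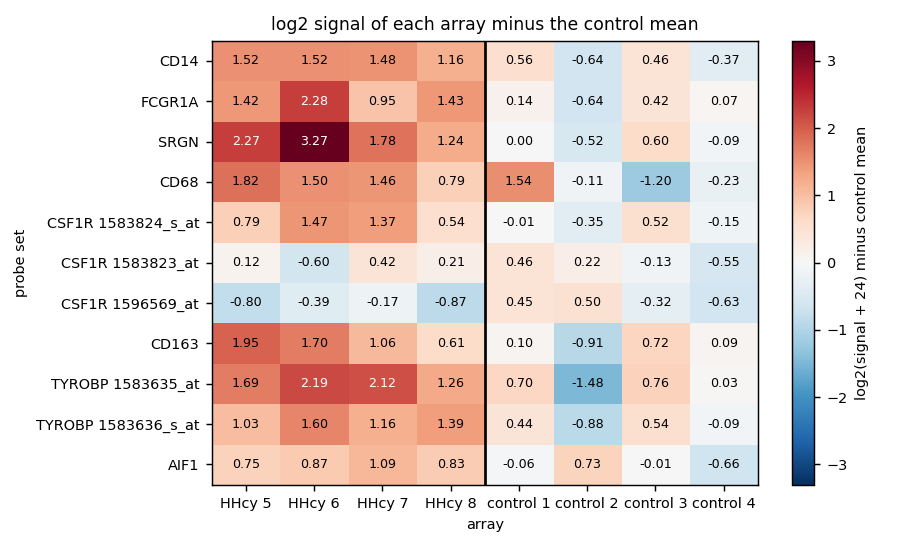
Log2(signal + 24) on each array minus the mean of the 4 controls, for the 11 marker probe sets (rows), with the HHcy arrays left of the line and the controls right of it. SRGN runs from 1.24 on HHcy 8 to 3.27 on HHcy 6, CD14 from 1.16 to 1.52, and control 2 is the lowest array for 6 of the 8 genes.

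The HHcy dogs differed in degree. The median deviation of the 8 genes from the control mean was 1.61 on HHcy 5, 1.61 on HHcy 6, 1.41 on HHcy 7 and 0.996 on HHcy 8. In the controls it was 0.12, -0.58, 0.49 and -0.12 on arrays 1 to 4. HHcy 8 was the lowest HHcy array for 6 of the 8 genes, HHcy 6 the highest for 4 and HHcy 5 for 3. Even so, the lowest of the 8 deviations on any HHcy array was 0.54.

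Inside the groups most pairs of markers were positively correlated, with AIF1 and CD68 outside that pattern. Taking each array's deviation from its own group mean, the median Pearson r over the 28 pairs of genes was 0.52 across the 8 arrays, and 19 pairs were above 0. TYROBP and CD14 had the highest r, 0.88, followed by SRGN with FCGR1A at 0.81 and SRGN with CD163 at 0.80. Each of the pairs of AIF1 was below 0, down to -0.52 with TYROBP, -0.52 with CD163 and -0.51 with FCGR1A. Control 2 pulled these pairs down, with a deviation of 0.73 for AIF1, against -1.48 for TYROBP, -0.91 for CD163 and -0.64 for FCGR1A. The r without control 2 was not computed, so the place of AIF1 outside the pattern may rest on that array. CD68 ran from -0.14 with CSF1R to 0.30 with CD14, and had 0.02 with SRGN and 0.03 with CD163. All pairs share the same arrays and their scaling, and without HHcy 6 the median was 0.43 with 18 pairs above 0.

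RNA quality moved with part of this pattern. The log2 3'/5' ratio, averaged over actin and GAPDH, was 4.02, 6.31, 1.89 and 1.29 on HHcy 5 to 8, against 1.43, -0.43, 1.51 and 1.09 on controls 1 to 4. It was high on the arrays with the highest SRGN and CD163 signals, and lowest on control 2, where most markers were lowest too. With this ratio as a covariate the median log2 fold change of the 8 genes was 1.10, and 6 of the 10 probe sets were higher at an unadjusted p under 0.05, against 3.34% of all probe sets. Without HHcy 6, where cardiac muscle markers were lowest, the median was 1.31 and 9 of 10 were higher at that p, against 8.5% of all. Without HHcy 5 and HHcy 6 it was 1.16 and 7 of 10, against 4.07% of all. The covariate lowered the fold to 2.29 for SRGN, 2.29 for TYROBP, 1.88 for FCGR1A and 1.55 for CD163, and raised it to 2.13 for AIF1. The CSF1R probe set 1583823_at had a log2 fold change of 0.45 with it, against 0.04 without. The part of RNA quality and of tissue content in the myeloid result was not tested.

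**Figure D3:**
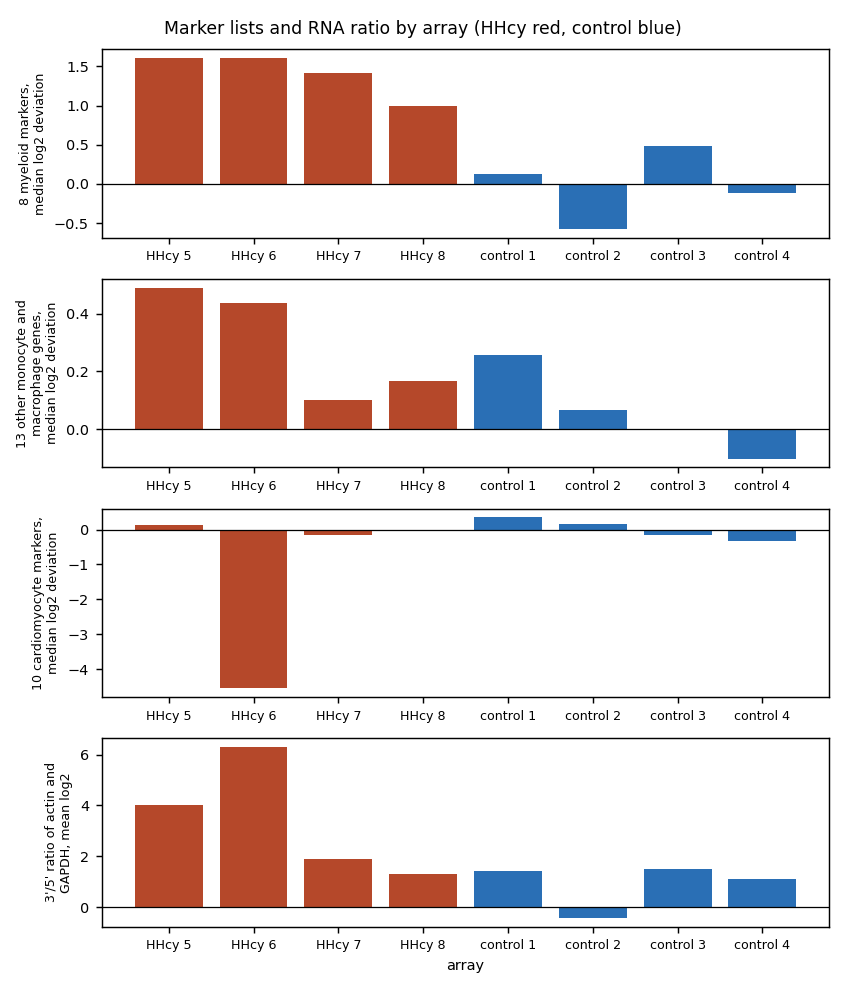
By array, with HHcy (red) left of control (blue): the median log2 deviation from the control mean of the 8 myeloid markers, of 13 other monocyte and macrophage genes and of 10 cardiomyocyte markers, and the log2 3'/5' ratio averaged over actin and GAPDH. The myeloid medians run from 0.996 to 1.61 on the HHcy arrays and from -0.58 to 0.49 on the controls, while the cardiomyocyte median of -4.56 and the 3'/5' ratio of 6.31 stand out on HHcy 6.

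The setting of the scale mattered for the weakest markers. Since the log2 fold changes of all probe sets had a median of 0.15 as deposited, 0.01 with quantile scaling and -0.19 with median scaling, the markers' values are to be read against that shift. Their median was 1.33 with quantile scaling and 1.11 with median scaling. With median scaling 7 of the 10 probe sets were higher at an unadjusted p under 0.05, against 4.71% of all probe sets, with AIF1 and the brightest CSF1R probe set no longer among them. The groups then lay apart for 4 of the 10, against 7 as deposited. The share of all probe sets lying apart was not counted with median scaling.

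**Figure D4:**
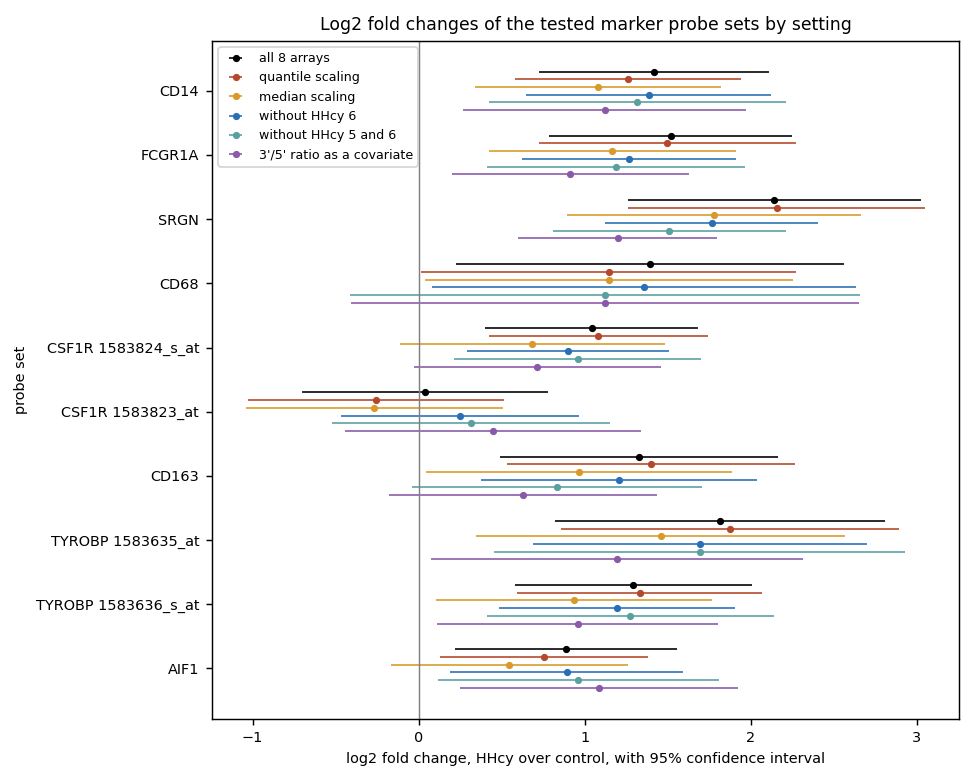
Log2 fold change, HHcy over control, of the 10 tested marker probe sets with 95% confidence intervals, under 6 settings. SRGN runs from 1.20 with the 3'/5' covariate to 2.16 with quantile scaling, and CSF1R 1583823_at is the only probe set among them with values on both sides of 0.

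Partners of the markers were measured only in part. In lipopolysaccharide sensing, 2 of 12 listed genes were on the array under a single symbol. TLR4, the signalling receptor that works with CD14, had 422, 293, 180 and 211 on HHcy 5 to 8, against 188, 111, 171 and 111 on controls 1 to 4 (log2 fold change 0.79 ± 0.33, SE; limma adjusted p 0.248), and the groups overlapped. TIRAP, an adaptor of TLR4, had 0.29 on that scale (limma adjusted p 0.662), and -0.01 with median scaling. Of 12 listed ligands, growth factor receptors and transcription factors around CSF1R, 0 could be matched to a probe set.

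Of 16 Fc receptors and immunoreceptor adaptors, 6 were measured, 0 passed and 2 were higher at an unadjusted p under 0.05, with a median log2 fold change of 0.73, where 11.9% of all probe sets were higher at that p. These 2 were the Src-family kinases LYN (0.93 ± 0.30, SE; limma adjusted p 0.176) and FGR (0.86 ± 0.31, SE; adjusted p 0.207), which phosphorylate such receptors. Their HHcy signals did not overlap the controls, with 377 to 824 against 213 to 286 for LYN. FGR was only just apart, with 339 to 678 against 160 to 333. In the list 3 of the 6 genes lay apart in this direction, against 7.49% of all probe sets. Without HHcy 5 and HHcy 6, 0 of the 6 were higher at that p, against 4.07% of all, and the median was 0.40. With the 3'/5' covariate it was again 0, against 3.34% of all, with a median of 0.02, and array weights gave a median of 0.32.

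Of 14 scavenger receptor and haem handling genes, 7 were measured, 0 passed and 3 were higher at an unadjusted p under 0.05, against 11.9% of all probe sets, with a median of 0.27, and -0.07 with median scaling. CD5L, a secreted protein of tissue macrophages also known as AIM, had 662, 208, 117 and 293 on HHcy 5 to 8, against 67.7, 124, 55.9 and 55.1 on controls 1 to 4 (log2 fold change 1.59 ± 0.46, SE; limma adjusted p 0.158). MARCO, a class A scavenger receptor related to MSR1, had 1252, 350, 159 and 153 on HHcy 5 to 8, against 116, 108, 14.0 and 81.1 on controls 1 to 4 (1.93 ± 0.63, SE; adjusted p 0.180). Both were by far the highest on HHcy 5. MARCO passed the filter only through its HHcy signals, and it is 1 of the 3 counted as higher, so that count is partly set by the filter. Without HHcy 5 and HHcy 6 the log2 fold change of MARCO was 0.96, and 1 of the 7 genes was higher at that p, against 4.07% of all. Without HHcy 5 alone MARCO had 1.31. SLC40A1, the iron exporter ferroportin, was the remaining one, at 0.86 ± 0.39 (SE; adjusted p 0.278), and was named after its values were seen.

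Of 18 lysosome and granule genes of phagocytes, 14 were measured, 0 passed and 5 were higher at an unadjusted p under 0.05, against 11.9% of all probe sets, with a median of 0.46, and 0.12 with median scaling. LYZ, the enzyme lysozyme, had signals of 4165, 8674, 6078 and 4275 on HHcy 5 to 8, against 2353, 2452, 2718 and 2104 on controls 1 to 4. All HHcy arrays lay well above a tight control group, with a log2 fold change of 1.20 ± 0.27 (SE; limma adjusted p 0.121, and 0.0489 with array weights, range over its alternatives 0.0489 to 0.875). CTSS, the lysosomal protease cathepsin S, had 3926, 4686, 3294 and 2178 on HHcy 5 to 8, against 1889, 975, 1668 and 1181 on controls 1 to 4 (log2 fold change 1.28 ± 0.30, SE; adjusted p 0.126). Its other probe sets gave 0.09 and 0.79. The other 3, named after their values were seen, were the aminopeptidase cathepsin H (CTSH) at 1.24, the lysosome membrane protein LAMP2 at 1.04 and the galactose-binding lectin LGALS3 at 1.56. LGALS3 had 8818 on HHcy 6 and 1083 to 1777 on the other HHcy arrays, against 361 to 1201 on the controls, so the groups overlapped, and its log2 fold change was 0.91 without HHcy 6 and 0.12 with the 3'/5' covariate. The list's count was again 5 of 14 without HHcy 5 and HHcy 6, against 4.07% of all probe sets. It was 3 with median scaling, against 4.71% of all, and 3 with the covariate, against 3.34% of all.

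The wider myeloid list behaved less uniformly. Of 36 other monocyte and macrophage genes 13 were tested, 0 passed, and 3 were higher and 0 lower at an unadjusted p under 0.05, against 11.9% and 5.94% of all probe sets. Their median log2 fold change was 0.25, close to the 0.15 of all probe sets, against 1.40 for the 8 markers, and turned to -0.12 with median scaling. PLEK, the protein kinase C substrate pleckstrin of platelets and leukocytes, had 743, 2629, 657 and 260 on HHcy 5 to 8, against 199, 8.11, 121 and 206 on controls 1 to 4 (2.67 ± 0.72, SE; limma adjusted p 0.147). Control 2 lay under the pseudocount there, and PLEK had 1.04 with the 3'/5' covariate. CD48, an adhesion molecule of leukocytes, had 1.26 ± 0.33 (SE; adjusted p 0.144) and 1.40 on a second probe set (adjusted p 0.141). The third, named after its values were seen, was the lipoxygenase ALOX5 at 1.21, and at 0.59 without HHcy 5 and HHcy 6. With the 3'/5' covariate 0 of the 13 were higher and 1 lower at that p, against 3.34% and 2.13% of all probe sets. Without HHcy 5 and HHcy 6, 2 were higher and 1 lower, against 4.07% and 4.2% of all. Lower at that p were also 1 with quantile scaling and 2 with median scaling, against 8.08% and 13.5% of all. In contrast, genes chosen after their values were seen included the complement subunits C1QA and C1QC, both made by macrophages, with 0.13 and 0.23, the integrin subunit ITGAM with 0.27, the actin-bundling LCP1 with 0.25 and the integrin subunit ITGB2, which passed the filter only through its control signals, with -0.97, none passing. With median scaling C1QA, C1QC, ITGAM and LCP1 turned to -0.21, -0.12, -0.07 and -0.12, and C1QA had -0.04 with quantile scaling. The lists differ in brightness and in how they were chosen, so the difference in medians was not tested.

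**Figure D5:**
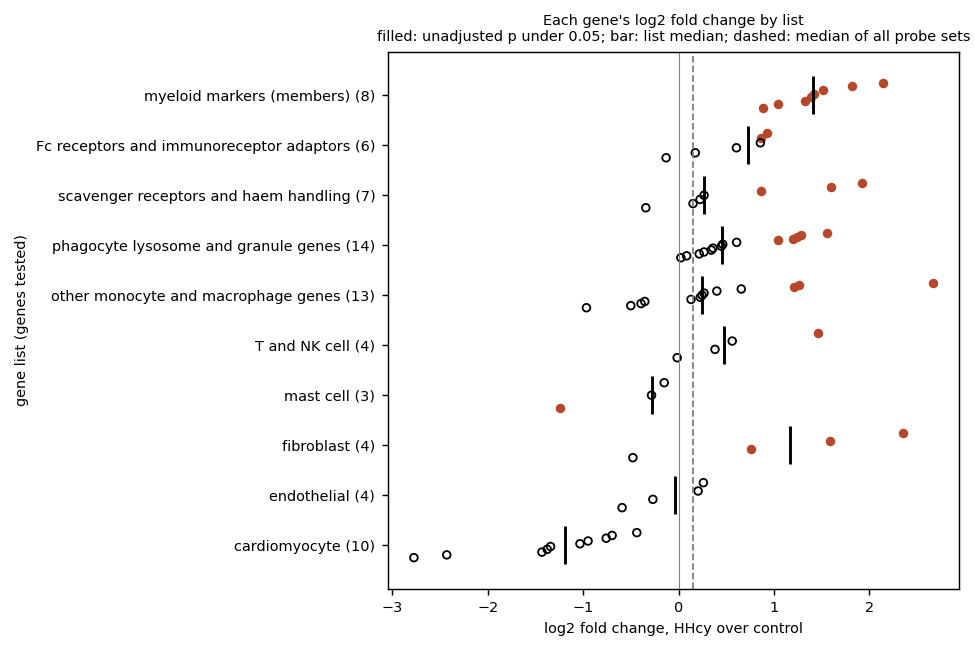
Log2 fold change, HHcy over control, of each tested gene by list, with the number of genes tested in brackets, filled points for an unadjusted p under 0.05, a bar at the list median and a dashed line at the 0.15 of all probe sets. The 8 measured myeloid markers lie between 0.89 and 2.14, whereas the 13 other monocyte and macrophage genes run from -0.97 to 2.67.

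Markers of other cell types were checked beside these results. The summed signal of the 8 myeloid markers was 11727 to 32574 on the HHcy arrays and 3813 to 8549 on the controls, without overlap. SRGN was a large part of that sum, with 4802 to 19808 on the HHcy arrays and 1408 to 3078 on the controls. Of 15 neutrophil genes 3 were on the array and 1 was bright enough to test, the gelatinase MMP9, with signals of 155 to 183 in HHcy and 14.6 to 125 in controls (log2 fold change 1.38 ± 0.51, SE; limma adjusted p 0.212), which passed the filter only through its HHcy signals. Among 4 T and NK cell genes, the co-receptor CD4, which dog myeloid cells can also carry, had 1.46 ± 0.46 (SE; limma adjusted p 0.174) and -1.29 on another probe set, and the T cell receptor subunit CD3D had 0.56 (adjusted p 0.368). The single B cell gene tested, the antibody joining chain JCHAIN, had -0.29 (adjusted p 0.700), and 0.16 without HHcy 6. Mast cell genes had a median of -0.28 over 3 genes, with the stem cell factor receptor KIT, which passed the filter only through its control signals, at -1.25 ± 0.54 (SE; adjusted p 0.262), and the receptor subunit MS4A2 at -0.28, which turned to 0.28 without HHcy 8. The dendritic cell lectin CD209 had 0.88 ± 0.37 (SE; adjusted p 0.249) and the class II gene DLA-DRA 0.59 ± 0.25 (SE; adjusted p 0.256). Other probe sets of DLA-DRA gave 0.50 and -0.13. Both genes are also expressed by macrophages.

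Of 4 fibroblast genes tested 0 passed, and 3 were higher in HHcy hearts at an unadjusted p under 0.05, against 11.9% of all probe sets. The 4 had a median log2 fold change of 1.17. The summed signal of the 5 fibroblast genes on the array was 17705 to 43002 in HHcy and 11776 to 17684 in controls, so the groups were barely apart. COL1A2, a chain of type I collagen, had 10887, 7686, 14363 and 1645 on HHcy 5 to 8, against 1917, 1638, 1921 and 452 on controls 1 to 4 (2.35 ± 0.64, SE; limma adjusted p 0.148), so HHcy 8 lay with the controls. The other chain COL1A1 had 1.59 ± 0.54 (SE; adjusted p 0.193) and the proteoglycan decorin (DCN), named after its values were seen, 0.76. The type III collagen chain COL3A1, named likewise, lay the other way at -0.48 (adjusted p 0.685). Without HHcy 5 and HHcy 6, and likewise with the 3'/5' covariate, 1 of the 4 was higher at that p, against 4.07% and 3.34% of all. Endothelial markers had a median of -0.03 over 4 genes, VWF having -0.59 (adjusted p 0.306; 1.29 on another probe set) and PECAM1 0.26 (adjusted p 0.572), the last turning to -0.11 with median scaling. Cardiomyocyte markers had a median of -1.19 over 10 genes with all arrays and of -0.07 without HHcy 6, with MYL3 at -2.78 (adjusted p 0.320) and TNNT2 at -2.43 (adjusted p 0.364). Without HHcy 6 these were -0.87 and -0.59. Both turned to the higher direction, at 0.59 and 0.92, once the 3'/5' ratio entered as a covariate, and the median of the 10 genes was then 0.59. The 1 red cell gene on the array was not bright enough to test. No marker of these lists was listed at 0 on any array, and the part of these cell types in the myeloid result was not tested.

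Among 5007 other genes with a single symbol, those whose pattern over the 8 arrays was most like the mean standardised profile of the 8 markers were CTSS, RPL12, MTPAP, TAP1 and GBGT1. Their Pearson r with it ran from 0.97 for GBGT1 to 0.99 for CTSS, where each gene was taken by its probe set of highest r. For each of the 5 the lowest HHcy array exceeded the highest control, against 7.49% of all probe sets. Genes chosen for likeness to markers that were higher in HHcy are bound to tend that way, so this is no separate result. Such an r is raised by any difference between the groups. On deviations from the group means it was 0.98 for CTSS, 0.94 for RPL12, 0.84 for TAP1, 0.83 for MTPAP and 0.80 for GBGT1. The 5 genes were chosen by the r over the same 8 arrays, which includes these deviations, so the values are a description and not a check. TAP1, which carries peptides to class I molecules, had signals of 492, 554, 446 and 370 on HHcy 5 to 8, against 271, 171, 196 and 141 on controls 1 to 4 (log2 fold change 1.18 ± 0.27, SE; limma adjusted p 0.121). RPL12, a protein of the large ribosomal subunit, had 0.66 ± 0.22 (SE; adjusted p 0.193), and MTPAP, the mitochondrial poly(A) polymerase, 0.72 ± 0.22 (SE; adjusted p 0.171). GBGT1, a glycosyltransferase that makes the Forssman glycolipid, had 0.92 ± 0.24 (SE; adjusted p 0.141).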

How the data were processed

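The authors deposited a linear signal intensity for each probe set, computed by MAS5 according to the submitters' processing notes, with no version in the sources used here. No detection calls or scanner files entered the work. Arrays were grouped by title, 4 HHcy and 4 control. Replicate error covers dog and handling together. Symbols came from the platform annotation, which gives 1 symbol for 10549 of 23913 probe sets. The RefSeq gene table holds the identifiers of 7 of the 8 measured markers, and lists CD68 under another identifier. No coordinates or sequences were used.

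Values were analysed as log2(signal + 24), where 24 is the 20th percentile of the table, which shrinks the folds of dim genes. The 77 Affymetrix control probe sets and the dimmest 40% by mean over all arrays were left out, which left 14301. Groups were compared with limma 3.58.1 (R 4.3.3), lmFit and eBayes with an intensity trend, two-sided, Benjamini-Hochberg adjusted at 0.05. A log2 fold change carries its standard error, and a signal its standard deviation. The brightest probe set stood for a gene in lists. The fit was tested on simulated data.

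The markers and lists were chosen with earlier results of these data known. Named were all markers, from each list the passing genes or else the 2 of lowest p, and the 5 genes closest in pattern. Alternatives were other scalings, pseudocounts of 6 and 96, filters, variance models, array weights, the 3'/5' ratio as a covariate, 1 probe set per gene and fewer arrays. Those for the list medians and the other named genes were chosen after seeing the data.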

Additional observations from a re-analysis of the deposited data

Results flagged for a closer look

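A check for a single array far from the other 3 of its group, made on 78 groups of 4 values, picked out 5, which is near the 1 in 20 that chance gives. CD14 had a signal of 479 on HHcy 8, against 602 to 621 on the other HHcy arrays. The kinase LYN had 824 on HHcy 6, the other HHcy arrays lying at 377 to 423. FGR had 678 on HHcy 6, the others of its group lying at 339 to 386. JCHAIN had 1025 on HHcy 6, against 3525 to 3767 on the other HHcy arrays. CD3D had 79.0 on control 4, against 167 to 175 on the other controls.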

How the results depend on the processing

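The number of marker probe sets passing was 0 in 17 of 20 alternatives and 1, SRGN, with array weights; leaving out 1 array gave 0 to 1. The median of the 8 genes kept its direction in all 20, from 1.10 to 1.59. The count higher at an unadjusted p under 0.05 ran from 6 to 9, with 8 to 11 marker probe sets tested. Among all probe sets the share higher at that p ran from 3.34% with the 3'/5' covariate to 13.2% without HHcy 7. Over all probe sets, 14 passed, against 7 with quantile scaling, 22 with median scaling, 9 with the dimmest 60% left out, 76 with array weights, 5 with the 3'/5' covariate, 5 without HHcy 5 and HHcy 6, 8 with 1 probe set per gene, and 3 to 31 leaving out 1 array. The cause of these moves was not tested. C1QA, C1QC, ITGAM and LCP1, chosen after their values were seen, turned with median scaling as given above. Among the markers and the genes named by rule, log2 fold changes that turned round belonged to probe sets that did not pass. They were those of CSF1R 1583823_at (-0.26 with quantile scaling, -0.27 with median scaling, and -0.14 to 0.25 leaving out 1 array), TIRAP (-0.011 with median scaling), JCHAIN (0.037 with array weights, 0.44 with the covariate, 0.18 without HHcy 5 and HHcy 6, and -0.46 to 0.16 leaving out 1 array), MS4A2 (-0.67 to 0.28 leaving out 1 array), PECAM1 (-0.11 with median scaling, -0.072 with the covariate, -0.0057 without HHcy 5 and HHcy 6), and MYL3 and TNNT2 (0.59 and 0.92 with the covariate). Of 197 alternative values of marker probe sets, 188 kept direction and side of the threshold, as did 543 of 556 for the other named genes. LYZ also passed with array weights, and COL1A2 without HHcy 8 (adjusted p 0.0395). No paired analysis was possible because the groups share no replicate numbers. Without detection calls, signals such as the 10.3 of CD68 on control 3 have no known distance from background.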
